A study of Mus musculus with 12 samples.

Results

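The ER chaperone and protein disulfide isomerase genes are 10 genes chosen by name: *Hspa5*, *Hsp90b1*, *Calr*, *Canx*, *P4hb*, *Pdia3*, *Pdia4*, *Pdia6*, *Dnajb11* and *Hyou1*. They are 10 of 55367 gene symbols in the expression tables, and all 10 passed the limit of 0.02 TPM that left 14427 genes to test. RNA was measured in 12 samples of isolated fibers of the extensor digitorum longus (EDL), a fast muscle of the mouse hindlimb, in 3 groups of 4. Young samples came from mice of 3 to 4 months, and the aged groups came from mice of 26 to 28 months. From the aged muscles, fibers with bright, aberrant staining by the calcium dye Fluo-4 (Fluo-4 abnormal) were separated under a fluorescence stereomicroscope from fibers with ordinary staining (Fluo-4 normal). The study used C57BL/6J mice and found the abnormal fibers in males. The abnormal group is thus a set of fibers picked by their staining, and neither the number of fibers in a sample nor whether the aged samples shared mice was given.

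In the endoplasmic reticulum (ER), which in muscle is continuous with the calcium-storing sarcoplasmic reticulum, newly made secretory and membrane proteins are folded by chaperones and joined by disulfide bonds before they leave. BiP, the product of *Hspa5*, binds exposed hydrophobic stretches and is steered by J-domain partners such as the product of *Dnajb11* and by nucleotide exchange factors such as the product of *Hyou1*. *Hsp90b1* encodes GRP94, the ER member of the HSP90 family, and *Calr* and *Canx* encode calreticulin and calnexin, lectins that hold glycoproteins. *P4hb*, *Pdia3*, *Pdia4* and *Pdia6* encode enzymes that make and rearrange disulfide bonds. When unfolded proteins gather, the unfolded protein response raises the transcription of such genes through the factors ATF6 and XBP1.

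Those factors are known to act through the ER stress element, CCAAT and CCACG separated by 9 bases of any kind, and its matches are shown because the 10 genes moved together in the fibers. In the 250 bases before the annotated start of transcription (RefSeq, GRCm38.p6), searched on both strands, 5 of the 9 genes with a promoter sequence held the whole element: *Hspa5*, *Hsp90b1*, *Calr*, *Canx* and *Pdia6*. Of all 32851 promoters of the same length, 37 held it, a share of 0.113%. Counted by gene, 35 of 27025 held it, a share of 0.13%. Since such genes are known targets of those factors, the element in them is no finding of these fibers, and the shares were not compared by a test. The matches were, each 5′ to 3′ on the strand that reads CCAAT first and with both ends of the element in capitals:
Hspa5: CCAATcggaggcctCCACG
Hsp90b1, near: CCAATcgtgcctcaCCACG
Hsp90b1, far: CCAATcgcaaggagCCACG
Calr: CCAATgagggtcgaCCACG
Canx: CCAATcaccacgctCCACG
Pdia6: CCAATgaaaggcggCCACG
The match of *Hspa5* lay 65 to 47 bases before the start and that of *Pdia6* 98 to 80 bases before it, both on the strand of the gene. *Hsp90b1* had a match at 107 to 89 bases on the other strand and another at 212 to 194 bases on its own. The match of *Calr* lay at 162 to 144 bases on the other strand and that of *Canx* at 145 to 127 bases on its own. The 9 bases between the ends differed among all 6 matches. *Hyou1* was matched to no promoter sequence.

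The CCAAT end alone is common. It was found in all 9 promoters and in 33.8% of all promoters, and the CCACG end alone in 6 of the 9 and in 28.3% of all, the whole element being an overlap of these searches. TGACGTGG, the core letters of the UPR element, was found in 0 of the 9 and in 0.563% of all promoters. The promoters of *Hspa5*, of *Hsp90b1*, which held 2 elements, and of *P4hb*, which had the largest rise of the 10 genes and held both ends but no whole element, are given in full, each on the strand of its gene. Capitals mark the ends of whole elements in *Hspa5* and *Hsp90b1*, whose other CCAAT matches are left in lower case, and the single ends in *P4hb*:
Hspa5, chr2:34771840-34772089, plus strand: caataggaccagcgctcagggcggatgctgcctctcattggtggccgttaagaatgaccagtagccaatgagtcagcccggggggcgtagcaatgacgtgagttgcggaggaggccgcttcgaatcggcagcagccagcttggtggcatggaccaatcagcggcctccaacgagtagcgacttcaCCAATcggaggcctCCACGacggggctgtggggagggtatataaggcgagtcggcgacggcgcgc
Hsp90b1, chr10:86705445-86705694, minus strand: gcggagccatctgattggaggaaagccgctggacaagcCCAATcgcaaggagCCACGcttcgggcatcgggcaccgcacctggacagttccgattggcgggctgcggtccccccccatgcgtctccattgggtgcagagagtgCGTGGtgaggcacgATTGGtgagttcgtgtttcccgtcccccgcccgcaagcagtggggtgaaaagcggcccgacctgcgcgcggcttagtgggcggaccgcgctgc
P4hb, chr11:120573254-120573503, minus strand: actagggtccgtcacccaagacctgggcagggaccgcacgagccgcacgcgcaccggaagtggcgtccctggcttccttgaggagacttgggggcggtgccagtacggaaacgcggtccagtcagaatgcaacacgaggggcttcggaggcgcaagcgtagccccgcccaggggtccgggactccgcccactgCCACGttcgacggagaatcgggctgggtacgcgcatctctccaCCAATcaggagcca
In *P4hb*, the CCACG end came before the CCAAT end, at 57 to 53 and 14 to 10 bases before the start. These are matches of letters in a sequence, and binding was not measured.

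**Figure D1:**
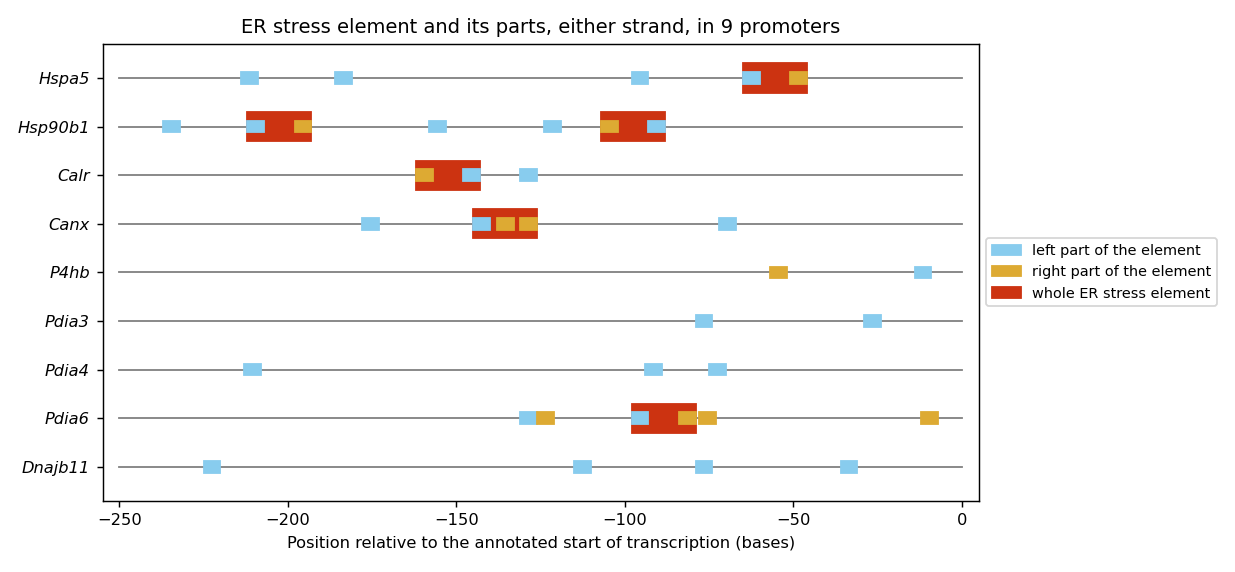
Positions of the whole ER stress element (tall red boxes) and of its CCAAT end (blue, left part) and CCACG end (yellow, right part) on either strand in the 250 bases before the start of transcription of 9 genes, in bases from the start at 0. Whole elements stand in the promoters of *Hspa5*, *Hsp90b1* (2 of them), *Calr*, *Canx* and *Pdia6*, and the CCAAT end in all 9.

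In the Fluo-4 abnormal fibers all 10 genes were expressed above their level in the Fluo-4 normal fibers, 1.45-fold (*Hyou1*) to 1.78-fold (*P4hb*) by the group means. Of the 10 genes, 8 rose past the test (limma on log2(TPM + 1), p-values adjusted over all 14427 genes), where 7.36% of all genes tested rose. The 2 others were *Pdia4* and *Hyou1*. For all 10 genes, every abnormal sample lay above every normal sample, which held for 11.5% of all genes tested. The median difference of the 10 genes was 0.65 on the log2 scale, beside 0.10 for all genes tested. Against the young fibers the abnormal fibers were also higher, whereas normal and young fibers did not differ by the test in any of the 10 genes.

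TPM is a share of the transcripts of a sample, so that more transcript of a gene in a fiber and less of the other RNA in it cannot be told apart. Each table adds up to 1000000 TPM. Read counts were not used here, so the depth is unknown and no counting error can be given. Between 16841 and 17936 genes were above 0 TPM in each sample. Across all genes, 1062 rose and 287 fell between abnormal and normal fibers, 78.7% of the calls being rises. After rescaling with TMM-type factors, which align the bulk of the genes between samples, the median of all genes moved from 0.10 to 0, and 306 rose and 542 fell, 36.1% being rises. With a trend of GC content and transcript length removed, 36.6% of the calls were rises. The factors were lowest in normal sample 1, at 0.809, and highest in abnormal sample 2, at 1.17, where a high factor means that most genes were high. They went with the group, from 1.06 to 1.17 in the abnormal samples, above all normal samples at 0.809 to 0.998. All young samples, at 0.908 to 1.04, were below the abnormal ones too. The 10 genes are therefore also given on the rescaled values.

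The chaperone BiP was the most abundant of the 10 gene products at the transcript level. *Hspa5* (chromosome 2, 34661982 to 34668880, plus strand, GRCm39) was at 123, 164, 152 and 134 TPM in young samples 1 to 4, at 106, 141, 167 and 154 TPM in the normal samples and at 224, 233, 207 and 260 TPM in the abnormal samples. The 4 abnormal samples stood above all 8 others, with the lowest of them 1.24 times the highest normal sample. The abnormal fibers, with a mean of 231 ± 22.2 TPM (SD, n = 4), differed from the normal fibers, with 142 ± 26.2 TPM, by 0.71 on the log2 scale (standard error 0.13, limma adjusted p = 0.00585). By level, *Hspa5* stood at rank 412 of the 14427 genes in the abnormal fibers and at 601 in the normal fibers. Of its exons, 44.2% overlap *Rabepk* on the opposite strand, which was at 3.82 to 8.53 TPM, and the library does not record the strand.

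*Hsp90b1*, whose product GRP94 folds a small set of client proteins and binds calcium, lies on chromosome 10 from 86526073 to 86541446, minus strand. It was at 24.8, 30.3, 30.3 and 23.6 TPM in the young samples, at 20.9, 28.1, 31.9 and 29.1 TPM in the normal samples and at 37.6, 49.5, 41.6 and 40.9 TPM in the abnormal samples. The abnormal samples stood apart from all others, abnormal sample 2 being the highest. It was 0.62 higher in the abnormal than in the normal fibers (standard error 0.13, limma adjusted p = 0.0128), and without abnormal sample 2 it was 0.54 and missed the test at an adjusted p of 0.0524.

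Both partners of BiP were lower in level than BiP itself. *Dnajb11*, whose product ERdj3 brings unfolded proteins to BiP (chromosome 16, 22676587 to 22698384, plus strand), was at 25, 26.3, 31.9 and 26.9 TPM in the young, at 21.6, 25.6, 23.0 and 24.1 TPM in the normal and at 30.7, 39.7, 32.8 and 34.9 TPM in the abnormal samples. The normal samples were below all abnormal samples, while young sample 3 lay between abnormal samples 1 and 3. It was 0.53 higher in the abnormal than in the normal fibers (standard error 0.10, limma adjusted p = 0.00651).

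*Hyou1*, whose product is an exchange factor and holdase for unfolded proteins (chromosome 9, 44290418 to 44303666, plus strand), was the lowest of the 10 genes. It was at 2.02, 2.18, 2.94 and 1.73 TPM in the young, 2.97, 2.73, 3.48 and 1.97 TPM in the normal and 3.93, 4.41, 3.87 and 3.95 TPM in the abnormal samples. The abnormal samples were nearly level with each other, and the normal samples were spread. The difference from the normal fibers, 0.43 (standard error 0.17, 95% confidence interval 0.07 to 0.78), did not pass the test (limma adjusted p = 0.125). At this low level the added 1 TPM shrinks a log2 difference, and with 0.1 TPM added it was 0.55 and also did not pass.

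The lectin chaperones rose alike. *Calr* (chromosome 8, 85567946 to 85573667, minus strand), which encodes the soluble lectin and a main calcium buffer of the ER, was at 77.9, 89.5, 70.6 and 81.7 TPM in the young samples, at 57.2, 73.2, 69.1 and 75.7 TPM in the normal samples and at 88.8, 135, 113 and 122 TPM in the abnormal samples. Abnormal sample 1 was the lowest of its group, above all normal samples and just below young sample 2. It was 0.72 higher in the abnormal than in the normal fibers (standard error 0.12, limma adjusted p = 0.0043).

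*Canx* (chromosome 11, 50183939 to 50216529, minus strand), which encodes the membrane-bound lectin, was at 24.2, 23.3, 24.8 and 22.1 TPM in the young samples, at 15.7, 26, 25.1 and 23.2 TPM in the normal samples and at 28.4, 45.9, 39.7 and 33.0 TPM in the abnormal samples. It had the widest spread of the 10 genes among the abnormal samples, with a coefficient of variation of 20.9%. The difference of 0.69 (standard error 0.16, limma adjusted p = 0.0183) missed the test without abnormal sample 2, at 0.57, and without abnormal sample 3, at 0.64.

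Among the disulfide isomerases the largest difference was that of *P4hb*, which encodes PDI itself and also serves as the beta subunit of collagen prolyl 4-hydroxylase (chromosome 11, 120451122 to 120464538, minus strand). It was at 69.0, 78.9, 72.2 and 67.6 TPM in the young samples, at 62.6, 69.6, 79.9 and 84.2 TPM in the normal samples and at 106, 151, 128 and 142 TPM in the abnormal samples. All abnormal samples exceeded 100 TPM, and no other sample exceeded 85 TPM. It was 0.82 higher in the abnormal than in the normal fibers (standard error 0.11, 95% confidence interval 0.57 to 1.07, limma adjusted p = 0.00139). A non-coding gene on the opposite strand, *Gm57341*, covers 21.2% of its exons.

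*Pdia3* (chromosome 2, 121244149 to 121270339, plus strand) encodes ERp57, the isomerase that works with calnexin and calreticulin on glycoproteins. It was at 13.4, 16.9, 13.2 and 13.9 TPM in the young samples, at 11.7, 15.2, 15.7 and 16.8 TPM in the normal samples and at 23.5, 25.6, 21.3 and 24.1 TPM in the abnormal samples. Its groups were separated by the widest relative gap of the 10 genes, the lowest abnormal sample being 1.27 times the highest normal sample. The difference was 0.64 (standard error 0.12, limma adjusted p = 0.00586).

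*Pdia6* (chromosome 12, 17316533 to 17335913, plus strand), which encodes the isomerase P5, was at 28.7, 37.3, 35.6 and 29.4 TPM in the young, 31.5, 25.6, 35.2 and 33.8 TPM in the normal and 52.9, 54.3, 38.1 and 57.0 TPM in the abnormal samples. Abnormal sample 3 stood well below the other 3 and close to the highest young and normal samples. The difference was 0.66 (standard error 0.14, limma adjusted p = 0.0113). Fitted with a block for the replicate number, it no longer passed (adjusted p = 0.0713).

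*Pdia4* (chromosome 6, 47770077 to 47790462, minus strand), which encodes ERp72, was at 6.28, 4.53, 5.58 and 4.68 TPM in the young, 4.3, 6.36, 4.67 and 4.84 TPM in the normal and 8.41, 8.20, 6.95 and 6.46 TPM in the abnormal samples. The lowest abnormal sample was only 1.02 times the highest normal sample. The difference of 0.50 (standard error 0.15, 95% confidence interval 0.18 to 0.82) missed the test at a limma adjusted p of 0.0532. It passed without normal sample 2, at 0.60 with an adjusted p of 0.0343, and with 0.1 TPM added.

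**Figure D2:**
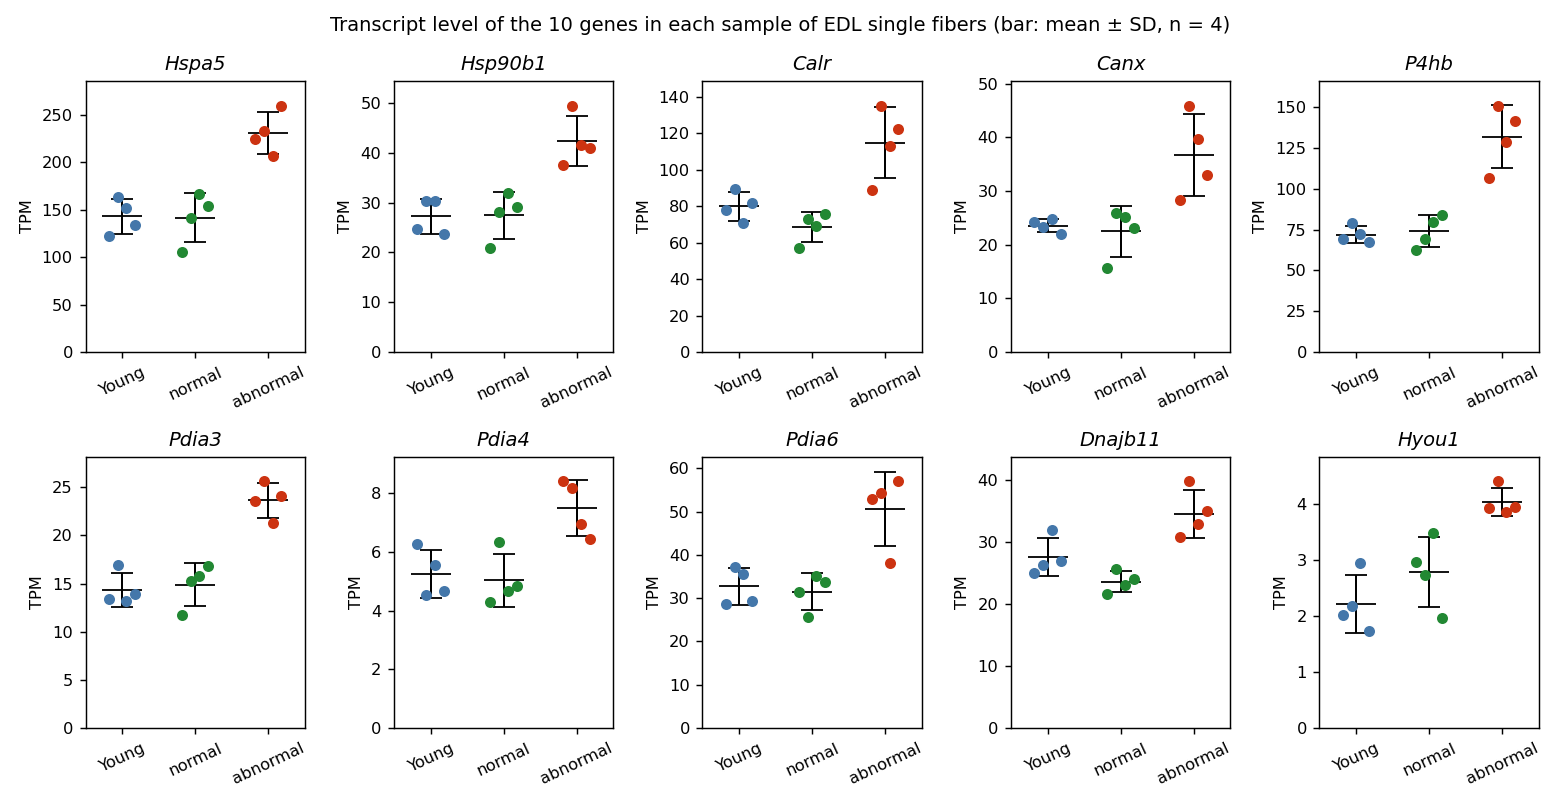
TPM of each of the 10 genes (vertical axis, from 0, its own scale in each panel) in the 4 young (blue), 4 Fluo-4 normal (green) and 4 Fluo-4 abnormal samples (red), in the order of their replicate numbers, with the mean ± SD as black bars. In every panel the 4 abnormal points lie above the 4 normal points.

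On the rescaled values all 10 genes were still higher in the abnormal than in the normal fibers, by 0.25 (*Hyou1*) to 0.60 (*P4hb*), with a median of 0.43. Of the 10, 6 rose past the test (*Hspa5*, *Hsp90b1*, *Calr*, *Canx*, *P4hb* and *Pdia3*), where 2.12% of all genes tested rose. *Pdia6* (adjusted p = 0.0797) and *Dnajb11* (adjusted p = 0.0528) missed it. The rescaled groups did not overlap for 7 of the 10 genes, beside 4.32% of all genes tested, and overlapped for *Pdia4*, *Pdia6* and *Hyou1*. Rescaling thus moved every difference toward 0 without turning any.

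Without each sample in turn, between 6 and 9 of the 10 genes rose past the test, beside 2.86% to 7.79% of all genes tested, and *Hspa5*, *Calr*, *P4hb*, *Pdia3*, *Pdia6* and *Dnajb11* did so every time. The abnormal and normal samples with the same replicate number deviated together from their group means, and with that number as a block 7 of the 10 genes passed, where 6.36% of all genes tested rose. With the block and the rescaling together, 3 passed (*Calr*, *Canx* and *P4hb*), beside 1.04% of all genes. When only the 8 aged samples were fitted, 5 passed (*Hspa5*, *Calr*, *P4hb*, *Pdia3* and *Dnajb11*), beside 2.92% of all genes.

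Since every abnormal sample lay above every normal sample, all 10 genes were also higher in the abnormal sample within each of the 4 replicate numbers, as under any matching. The ratio of abnormal to normal ran from 1.08 for *Pdia6* in number 3 to 2.17 for *P4hb* in number 2. Summed over the 10 genes the ratios were 1.81, 1.80, 1.39 and 1.62 for numbers 1 to 4. *Dnajb11* had the most even ratios, 1.42 to 1.55, and *Hyou1* and *Pdia6* the most uneven, up to 2.01 and 2.12. Normal sample 1 was the lowest of its group for 8 of the 10 genes and abnormal sample 2 the highest of its group for 7, and these were the samples with the lowest and the highest scaling factor.

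The summed level of the 10 genes was 394, 473, 439 and 406 TPM in the young samples, 334, 414, 455 and 447 TPM in the normal samples and 605, 746, 632 and 724 TPM in the abnormal samples. The abnormal samples carried 677 ± 68.9 TPM (SD, n = 4), 1.64 times the 412 ± 55.2 TPM of the normal samples, and no abnormal sample came near the other groups. The make-up of the sum cannot be moved by rescaling a sample as a whole. *Hspa5* took 33.4% ± 1.64 of it in the young, 34.2% ± 2.06 in the normal and 34.2% ± 2.73 in the abnormal samples. *P4hb* went from 16.8% ± 0.48 in the young to 18% ± 0.97 in the normal and 19.4% ± 1.27 in the abnormal samples, and *Dnajb11* from 6.45% ± 0.71 over 5.77% ± 0.66 to 5.10% ± 0.21. The share of *P4hb* was 16.4% to 17.5% in the young, 16.8% to 18.8% in the normal and 17.6% to 20.3% in the abnormal samples, so that the abnormal samples overlapped with the normal but not with the young ones. That of *Dnajb11* was 5.55% to 7.27%, 5.07% to 6.46% and 4.83% to 5.32%, with the abnormal samples again overlapping with the normal but lying below all young ones. These shares were not tested.

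**Figure D3:**
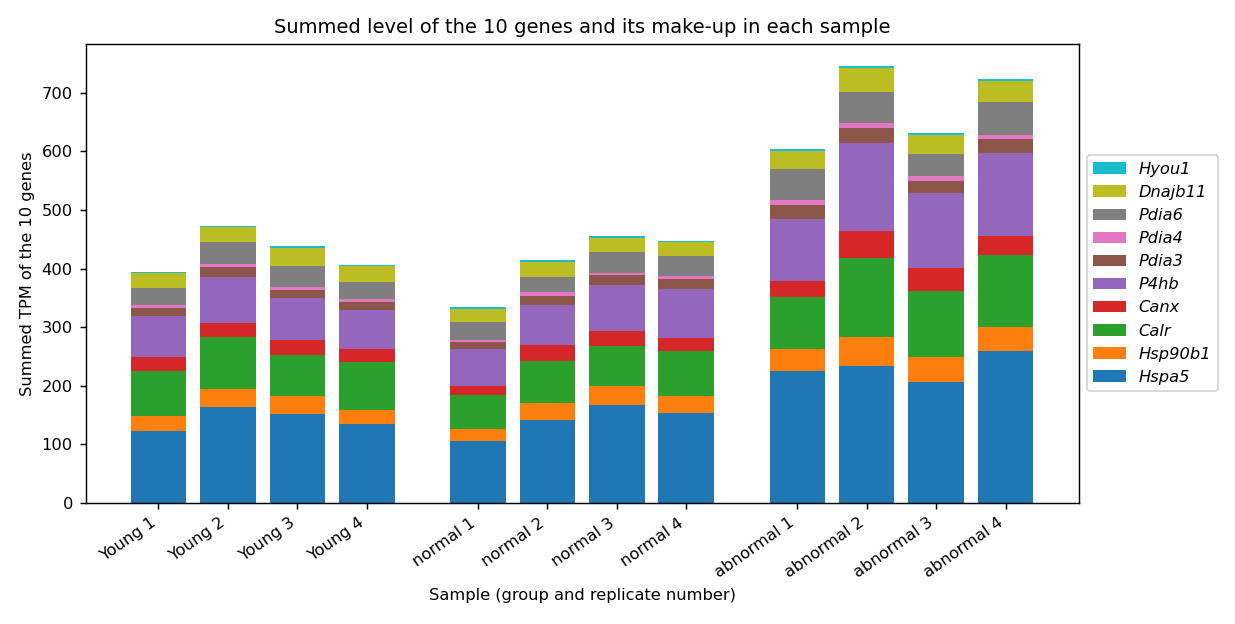
Stacked bars from 0 of the TPM of the 10 genes in each of the 12 samples, labelled by group and replicate number, with a colour for each gene. The 4 abnormal bars reach 605 to 746 TPM and the 8 others 334 to 473 TPM, and *Hspa5* is the largest layer in each.

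Compared with the young fibers, the abnormal fibers were higher in all 10 genes, by 0.32 (*Dnajb11*) to 0.85 (*P4hb*) with a median of 0.61. Of the 10, 8 rose past the test, where 6.09% of all genes tested rose, and the groups stood apart for 8, as they did for 12.2% of all genes. The genes that missed the test were *Pdia4* at 0.44 (standard error 0.15, adjusted p = 0.0859) and *Dnajb11* at 0.32 (standard error 0.10, adjusted p = 0.0663). *Hyou1*, which had missed it against the normal fibers, passed here with 4.04 ± 0.25 against 2.22 ± 0.52 TPM (SD, n = 4), a difference of 0.66 (standard error 0.17, adjusted p = 0.028). The difference of *Calr* from the young fibers was 0.50 (standard error 0.12, adjusted p = 0.025), and its groups overlapped. This comparison shares the abnormal samples with the preceding one.

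The count against the young fibers leaned on single samples. It fell to 3 of the 10 genes without young sample 4 and to 4 without young sample 1, abnormal sample 2 or abnormal sample 4, and *Hspa5*, *P4hb* and *Pdia3* passed in each of the 12 fits that left out a sample. In those fits 2.62% to 8.64% of all genes tested rose, the lowest share being that without young sample 4. On the rescaled values 5 of the 10 genes rose past the test (*Hspa5*, *Hsp90b1*, *Canx*, *P4hb* and *Pdia3*), where 3.09% of all genes tested rose. The rescaled groups did not overlap for 6, beside 6.22% of all genes, and the differences ran from 0.15 to 0.68.

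Between normal and young fibers 0 of the 10 genes passed the limma test, 0 had an unadjusted p under 0.05, and 1.15% of all genes tested were called in either direction. The differences ran from a fall of *Calr*, -0.22 (95% confidence interval -0.48 to 0.05), to a rise of *Hyou1*, 0.23 (-0.13 to 0.59), neither past the test, with 4 genes above 0 and 6 below. *Dnajb11* came nearest to the test, at -0.21 (-0.43 to 0.00, adjusted p = 0.393). For *Hspa5* the interval was -0.31 to 0.26 and for *P4hb* -0.21 to 0.28, which does not show equality but holds no difference as large as that between abnormal and normal fibers, 0.71 and 0.82. The 2 groups overlapped in all 10 genes.

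**Figure D4:**
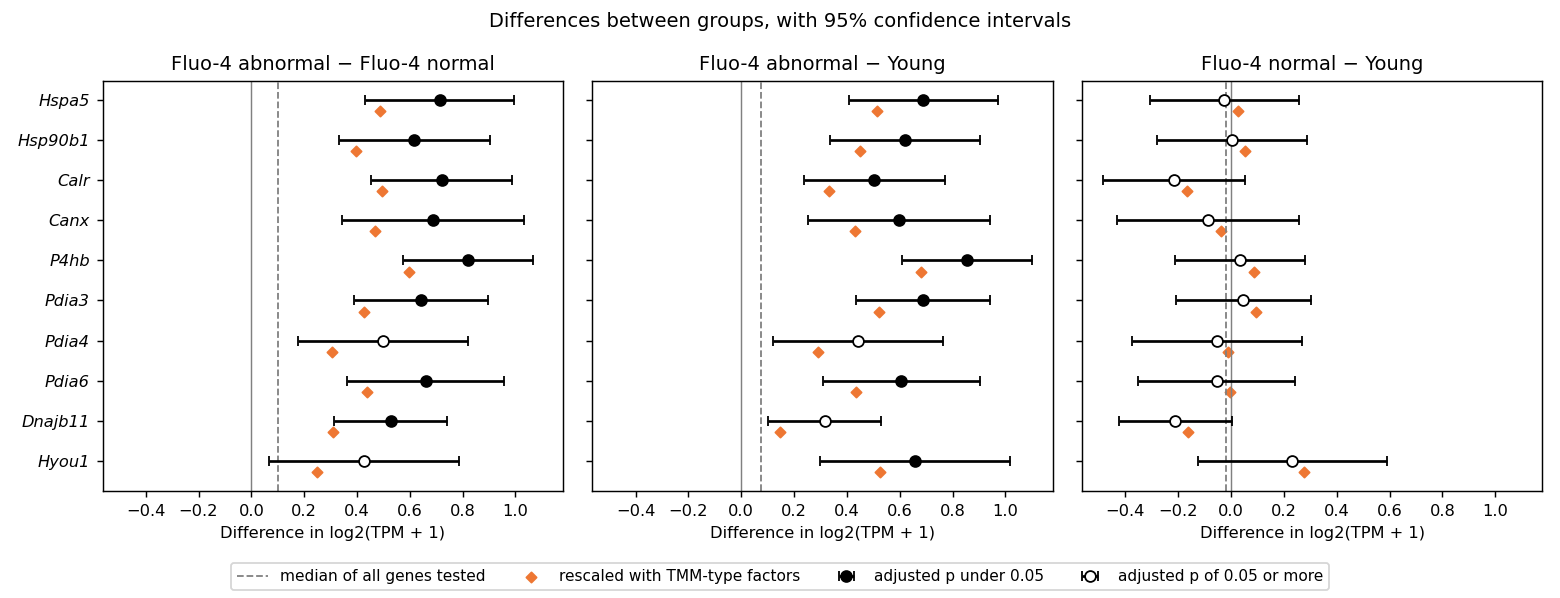
Differences of the 10 genes between groups in log2(TPM + 1), with 95% confidence intervals (circles, filled for an adjusted p under 0.05), the values after rescaling (orange diamonds) and the median of all genes tested before rescaling (dashed line). Against normal or young fibers every gene is above 0 on either scale, with 8 filled circles in each of these panels, whereas the panel of normal against young fibers has none.

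Other genes of protein folding in the ER rose less evenly. Over 6 lists of such genes, 69 of 72 reached the limit for testing, and 17 of these rose and 0 fell between abnormal and normal fibers, with a median of 0.24, beside 7.36% of all genes rising and a median of 0.10. On the rescaled values 4 of the 69 rose, beside 2.12% of all genes tested, and 1 fell. The 4 were *Sdf2l1*, *Dnajc3*, *Uggt1* and *Atf6*, and the other list genes that rose in the main fit missed the test there. The fall was that of *P4ha2*, an alpha subunit of collagen prolyl 4-hydroxylase, at -0.43 (limma adjusted p = 0.0232), which was picked out after its value was seen. The list count depended on single samples, with 5 without abnormal sample 2, 10 without normal sample 3, 10 without abnormal sample 4, and 11 without normal sample 2 or abnormal sample 3. Against the young fibers 12 of the 69 rose and 0 fell, beside 6.09% of all genes tested rising, with 7 without young sample 4 or abnormal sample 2. Between normal and young fibers 0 passed the limma test, and 11 were at an unadjusted p under 0.05, beside 1865 of all 14427 genes.

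The list of BiP cochaperones, which also holds other folding factors such as *Cnpy2*, *Cnpy3* and *Creld2*, was the one most like the 10 genes. All 13 were higher in the abnormal fibers and 6 rose past the test, *Cnpy3* among them, with a median of 0.53. Of all genes tested 69.6% were higher and 7.36% rose. *Sdf2l1*, whose product keeps client proteins soluble together with ERdj3, rose from 6.83 ± 1.52 to 15.0 ± 2.46 TPM (SD, n = 4), a difference of 1.04 (standard error 0.16, limma adjusted p = 0.0023). *Manf*, which encodes a secreted, BiP-binding factor, rose by 0.75 (adjusted p = 0.0135, 0.105 with the block) with overlapping groups, and *Dnajc3*, which encodes the J-domain protein p58IPK, rose by 0.68 (adjusted p = 0.0152). *Manf* and *Dnajc3* missed the test without abnormal sample 2.

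Of the other 17 disulfide isomerases and oxidative folding genes tested, 3 rose and 0 fell, with a median of 0.16, beside 7.36% of all genes tested rising and a median of 0.10. *Erp44*, which retains proteins in the early secretory pathway through thiol bonds, was at 25 ± 2.25 against 19.0 ± 1.74 TPM (SD, n = 4) and rose by 0.37 (adjusted p = 0.0286). The young samples, at 25.6 ± 2.33 TPM, were level with the abnormal ones (-0.03, limma adjusted p = 0.873), and all normal samples lay below the young ones. *Qsox1*, a sulfhydryl oxidase, rose by 0.68 (adjusted p = 0.035), and the membrane-bound isomerase *Tmx1* had a difference of 0.23 that did not pass (adjusted p = 0.352). Leaving out single samples removed the call of *Erp44* in 5 of 12 fits and that of *Qsox1* in 7 of 12. *Pdia5*, a close relative of the 4 isomerases described above, was at a difference of -0.11 (adjusted p = 0.645) and was picked out after its value was seen. It was at only 0.23 ± 0.20 TPM in the abnormal and 0.34 ± 0.24 TPM in the normal samples (SD, n = 4). At this level, below the 5 TPM of the naming rule, the added 1 TPM shrinks any difference, so that it says little on a change.

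In the calnexin and calreticulin cycle 2 of 11 genes rose and 0 fell, beside 7.36% of all genes tested rising. *Uggt1*, which encodes the sensor that returns misfolded glycoproteins to the lectins, was at 15.6 ± 2.90 against 8.53 ± 2.00 TPM (SD, n = 4), a rise of 0.81 (adjusted p = 0.0185) that missed the test without abnormal sample 2 or abnormal sample 3. *Mlec*, which encodes malectin, rose by 0.51 (adjusted p = 0.032) and lost the call in 8 of 12 fits without a sample. Against young fibers *Uggt1* also rose (1.17, limma adjusted p = 0.00262), whereas *Mlec* did not pass (0.16, limma adjusted p = 0.537). *Mlec* was at 38.4 TPM in young, 29.6 TPM in normal and 42.8 TPM in abnormal fibers. *Prkcsh*, the regulatory subunit of glucosidase II, had a difference of 0.24 (adjusted p = 0.263).

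Among prolyl isomerases and collagen chaperones 3 of 16 rose and 0 fell, with a median of 0.14, beside 7.36% of all genes tested rising and a median of 0.10. *Fkbp9*, a prolyl isomerase, rose by 0.50 (adjusted p = 0.0054, 0.0501 with the block). *P4ha1*, which encodes the alpha subunit that pairs with the product of *P4hb* in collagen prolyl 4-hydroxylase, rose by 0.52 (adjusted p = 0.0308), and *Ppib*, cyclophilin B, rose by 0.27 (adjusted p = 0.0376, 0.0778 with the block). Fits without a sample removed the call of *P4ha1* in 6 of 12 and that of *Ppib* in 7 of 12. Against young fibers *Fkbp9* and *Ppib* also passed (limma adjusted p = 0.0247 and 0.00978), whereas *P4ha1* did not (0.12, limma adjusted p = 0.654). *P4ha1* was at 17.5 TPM in young, 12.9 TPM in normal and 19.0 TPM in abnormal fibers. Of the 3 KDEL receptors, which return escaped ER chaperones, *Kdelr2* rose by 0.66 (adjusted p = 0.00565, 0.0646 with the block), and *Kdelr1* had a difference of 0.34 (adjusted p = 0.0983) that passed only without abnormal sample 1.

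Regulators of the unfolded protein response were all higher in the abnormal fibers, with 2 of 9 past the test and a median of 0.33. *Xbp1* was at 122 ± 13.8 against 82.9 ± 10.4 TPM (SD, n = 4) and rose by 0.55 (adjusted p = 0.00602), and *Atf6* rose by 0.75, from 2.92 ± 0.88 to 5.48 ± 0.18 TPM (adjusted p = 0.015, 0.0608 with the block). On the rescaled values *Xbp1* was 0.32 higher and missed the test (limma adjusted p = 0.114), while *Atf6* was 0.57 higher and passed it (0.0407). *Atf4*, the effector of the PERK branch, had a difference of 0.18 (adjusted p = 0.396) that turned to -0.05 on the rescaled values. The gene-level values do not show splicing of *Xbp1* or cleavage of ATF6. Over all genes, 35 held the ER stress element in a promoter, and of the 14 tested that were not among the 10 genes, 12 were higher in the abnormal fibers and 2 rose past the test, *Dnajc3* and *Syvn1*, with a median of 0.20. Of all genes tested 69.6% were higher and 7.36% rose, with a median of 0.10. Whether the 14 genes differed from these shares was not tested.

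**Figure D5:**
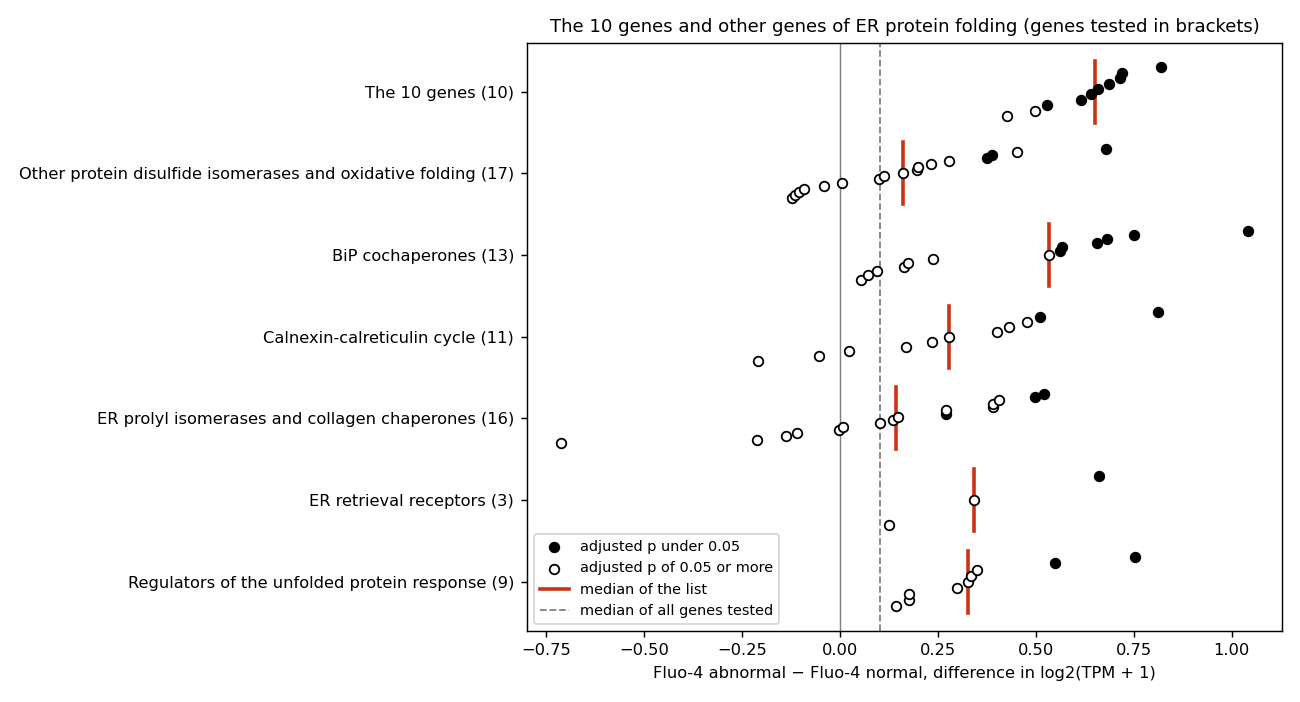
Difference between Fluo-4 abnormal and Fluo-4 normal fibers in log2(TPM + 1) for each gene tested (circles, filled for an adjusted p under 0.05), for the 10 genes and 6 lists of other genes of ER protein folding, with the median of each list (red line) and of all genes tested (dashed line, 0.10). The 10 genes lie between 0.43 and 0.82, and the other lists span values on either side of 0 apart from the BiP cochaperones, the retrieval receptors and the regulators.

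The 10 genes also varied together. Over the 12 samples, the 45 pairs among them had Pearson correlations of log2(TPM + 1) from 0.52 (*Calr* and *Hyou1*) to 0.96 (*Hspa5* and *Pdia3*), with a median of 0.82. These values share the group differences and the scale of each sample. After the group means were taken out, the median was 0.41, from -0.33 (*Pdia4* and *Pdia6*) to 0.85 (*Calr* and *P4hb*), with 38 of 45 above 0. The scale of each sample was still part of these values, which were not rescaled. Pairs of other genes were not correlated for comparison. The genes most like the mean of the 10, among 5985 with at least 5 TPM, were *Mypn* at a correlation of 0.99, *Atp6v0a1*, *Uso1*, *Ssr1*, *Tm9sf2*, *Prnp*, *F830016B08Rik*, *Musk*, *Ssr3* and *Ube2d3* at 0.97. *Mypn*, which encodes a Z-disc protein, was at 72.3 ± 7.29, 70.3 ± 11.7 and 119 ± 16.5 TPM (SD, n = 4) in young, normal and abnormal fibers. *Ssr1* and *Ssr3* encode parts of the translocon-associated complex of the ER, and *Uso1* a tether of vesicles between ER and Golgi.

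All samples carried the markers of fast fibers at high levels. *Myh4* was 93.7% to 99.2% of the adult myosin heavy chain TPM in the normal samples and 98.9% to 99.7% in the abnormal samples, overlapping because of normal sample 1. Within each of the 4 replicate numbers the abnormal sample had the higher share, and all abnormal samples were above the young ones, at 96.9% to 98.6%. With that share as a covariate, 7 of the 10 genes rose past the test, where 4.94% of all genes rose. With the share and the replicate block together 0 passed in limma, as did 0 of all genes. An unadjusted p under 0.05 was found for 8 of the 10, beside 2461 of all 14427 genes tested. The 10 fiber markers summed to 120240 to 139535 TPM in the normal and 143847 to 164538 TPM in the abnormal samples, without overlap. In the young samples they summed to 135467 to 137328 TPM, also below the abnormal ones. *Actn3* had the largest ratio of the 10, being 1.71 times as high in the abnormal as in the normal fibers. *Myh1*, at 76.1 against 334 TPM, and *Myh2*, at 5.68 against 11.7 TPM, were lower by the mean in the abnormal fibers, with overlapping groups. The other markers were higher by the mean, *Acta1*, *Tnnt3* and *Mylpf* the least, with overlapping groups for these.

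Cells that secrete much protein also express these chaperones, so their markers stand beside the result. All 7 fibroblast markers were detected, with sums of 25.4 to 83.1 TPM in the normal and 13.6 to 64.4 TPM in the abnormal samples, overlapping. The 7 endothelial markers summed to 6.22 to 26.7 and 3.05 to 11.3 TPM. The 6 satellite cell markers summed to 35.4 to 42.9 TPM in the normal and 44.8 to 65.2 TPM in the abnormal samples, almost all of it *Itga7*, a gene that fibers also express, while *Pax7* was at most 0.109 TPM in any sample. Of the 7 immune markers 6 were above 0 TPM in each aged group, with sums of 5.68 to 15.5 TPM in the normal and 9.32 to 16.2 TPM in the abnormal samples, *Ptprc* was at most 0.262 TPM, and *Cd3e* was higher in the abnormal fibers at 3.05 ± 1.23 against 0.72 ± 0.12 TPM (SD, n = 4). In the young samples the immune sums were lower, at 1.81 to 3.02 TPM, apart from both aged groups, and *Lyz2* carried most of the gap. *Cd3e*, at 1.17 ± 0.32 TPM in the young samples, lay between the normal and the abnormal mean. *Cd68* was at 0.28 TPM in both young and normal samples and at 1.04 TPM in the abnormal ones. *Csf1r* and *Adgre1* were at most 0.385 and 0.011 TPM in any sample. *Lyz2*, a gene of macrophages, was at 0.743 ± 0.363 TPM in the young and 8.01 ± 1.71 TPM in the abnormal samples (SD, n = 4), a rise of 2.38 (limma adjusted p = 0.000355), beside 7.46 ± 4.25 TPM in the normal samples. The differences of *Lyz2* and *Cd3e* stand beside the rise of the 10 genes against the young fibers, and their part in the result was not tested. The 5 markers of smooth muscle and pericytes summed to 5.04 to 22 and 3.50 to 11.7 TPM, the 4 of Schwann cells to 0.547 to 2.43 and 1.02 to 2.55 TPM, and the 3 of red cells to 76.4 to 297 and 27.1 to 147 TPM. All 4 adipocyte markers were at 0 TPM. In the young samples the sums were 19.6 to 38.3 TPM for fibroblast, 5.44 to 12.4 for endothelial, 4.34 to 63.8 for smooth muscle and pericyte, 0.511 to 1.07 for Schwann cell and 21.2 to 77.6 TPM for red cell markers, all overlapping with the abnormal samples, and 32.7 to 39.9 TPM for satellite cell markers, below them. The fibroblast gene *Dcn* was at 37.2 ± 18 TPM in the abnormal and 16.4 ± 6.97 TPM in the young samples (SD, n = 4), overlapping and not past the test (limma adjusted p = 0.181). *Pdgfra* and *Lum* were also higher by the mean in the abnormal samples. The collagen genes were lower there, *Col1a1* at 0.37 against 2.00 TPM, *Col1a2* at 1.20 against 2.54 TPM and *Col3a1* at 1.51 against 3.59 TPM. *Dpt* was at 0.22 TPM in both, and none of these genes passed the test.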

How the data were processed

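The authors made libraries from 10 ng of RNA with SMART-Seq v4, ran DRAGEN 4.3 on GRCm39 and deposited TPM, 1 table per sample with 55487 entries. The gene annotation was not given in the sources used here. Entries of the same symbol were summed. log2(TPM + 1) of protein-coding and mitochondrially-encoded genes with a mean of at least 0.02 TPM in some group was fitted with limma 3.58.1 (R 4.3.3, variance trend, Benjamini-Hochberg adjustment over 14427 genes) for the 3 groups of 4 samples, and the fit was checked on simulated data. The 10 genes, the lists and the alternatives were chosen with earlier results of these data known. Of each list, the 3 genes with the smallest p at 5 TPM or more were named, by a rule. TMM-type factors trimmed 30% of ratios and 5% of levels. Neither labels nor methods say that a replicate number marks a mouse or that samples are separate animals, so p-values measure the spread between these samples. In 4468 genes at 10 TPM or more, the abnormal and normal samples of a number deviated together, with correlations of 0.51, 0.42, 0.46 and 0.33. They were taken as pairs only in the fits with a replicate block. The main fit, which gave the p-values printed without a setting, had no block. The correlations of aged and young samples of the same number were not all above 0.1. Promoters came from RefSeq (GRCm38.p6), gene positions from GENCODE vM39. BLAST 2.17.0 found 0 near-identical copies (95% identity over 50% of a transcript) of the 10 genes. Python 3.11.15 and matplotlib 3.10.9 were used for tables and figures.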

Additional observations from a re-analysis of the deposited data

Results flagged for a closer look

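*Hyou1* in abnormal sample 2 was at 4.41 TPM, while the other 3 abnormal samples were at 3.87, 3.93 and 3.95 TPM. Its gap to the nearest of them was 0.843 of the range of the group, above the 95% critical value of Dixon's test for 4 samples. Of 63 groups of 4 values checked in this way it was the only one past that value, and chance alone passes about 1 in 20. The level of *Hyou1* is low, and the reads behind these values are unknown.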

How the results depend on the processing

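Besides the fits without each sample, 12 alternatives were planned and 2, the replicate block with the TMM-type factors and with the *Myh4* share, were added after seeing the data. All 259 values of the 10 genes between abnormal and normal fibers, and all 259 between abnormal and young fibers, kept their direction, and 233 and 203 of them also their side of the test. *Hyou1* gave no value at the 5 TPM limit. The count of the 10 genes past the test between abnormal and normal fibers, 8, became 5 with only the 8 samples compared, 3 with the block and rescaling and 0 with the block and the *Myh4* share, and was 6 to 9 without a sample. Against young fibers, 8 became 5 after rescaling, 4 with the block, 4 with both and 0 with the block and the *Myh4* share, and was 3 to 9 without a sample. Of all 14427 genes tested, 446 rose against young fibers after rescaling, 499 with the block and 258 with both. With the block and the *Myh4* share, 0 of all genes did. Young and aged samples shared only a number, so that the block there is not a pairing by the design. For the 69 other genes, 17 calls between abnormal and normal fibers, all rises, became 5 in either direction after rescaling, 10 without the mitochondrially-encoded genes, 7 with the 8 samples, 6 with the *Myh4* share, 11 with the block, 8 with the GC and length trend removed and 10 with the block as well. It became 1 with the block and rescaling and 0 with the block and the *Myh4* share, and was 5 to 18 without a sample. Over all genes tested, 1349 calls in either direction became 848 after rescaling and 961 without the mitochondrially-encoded genes. They became 566 with the 8 samples, 820 with the *Myh4* share, 1150 with the block, 1222 with the trend removed and 1790 with trend and block. With the block, 485 were left after rescaling and 0 with the *Myh4* share. Against young fibers, the 12 calls of the 69 genes became 6 after rescaling, 7 with the block, 7 with both and 0 with the block and the *Myh4* share, with 7 to 13 without a sample. The 1226 calls over all genes became 1139, 684, 741 and 0 in the same order of settings. Between normal and young fibers, the count of the 69 genes, 0, became 1 at 5 TPM and 1 with quality weights, in both a fall of *Erp44*. Of the calls of the 69 genes between abnormal and normal fibers, falls were *P4ha2* after rescaling and with the trend removed, *Fkbp7* with the block, and both with block and trend. Against young fibers *Erp29* fell after rescaling and with the trend removed, each with or without the block. The causes of these moves were not tested.

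The block changed no member call between abnormal and normal fibers other than that of *Pdia6*. Signs turned as follows, none past the test. Between abnormal and normal fibers, *Atf4* went to -0.048 after rescaling with or without the block, and *Kdelr1* to -0.025 with the block and the *Myh4* share. Between normal and young fibers, *Hspa5* went to 0.026 after rescaling with or without the block, 0.0047 without the mitochondrially-encoded genes, 0.069 with quality weights and 0.038 with the trend removed, with or without the block. With the *Myh4* share, *Hsp90b1* went to -0.081, *Pdia3* to -0.026 and *Pdia6* to 0.020, and with the block as well *Hsp90b1* to -0.0042 and *Pdia6* to 0.084. *Pdia4* went to 0.014 with the trend removed, with or without the block. Without a sample, the range spanned 0 for *Hspa5* (-0.109 to 0.108), *Hsp90b1* (-0.071 to 0.126), *Canx* (-0.163 to 0.068), *P4hb* (-0.029 to 0.111), *Pdia3* (-0.013 to 0.149), *Pdia4* (-0.153 to 0.020) and *Pdia6* (-0.113 to 0.039). TPM hides the read counts, so how far depth limits the low genes *Hyou1* and *Pdia4* is unknown.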
